A study of Mus musculus with 4 samples.

Results

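A set of 8 genes that T cells switch on, or use to restrain, after antigen receptor signalling was followed across 4 arrays of mouse CD4+ T cells. The members were chosen by name: the nuclear receptors Nr4a1, Nr4a2 and Nr4a3, the zinc-finger factors Egr1, Egr2 and Egr3, and the Egr corepressors Nab1 and Nab2. Earlier results of these data were known when they were chosen, so their counts beside shares of all genes are descriptive only. All 8 were on the array, with 10 of its 41174 non-control probes, out of 27597 genes in all. By its title, the series concerns the Ikaros family protein Eos and silencing of genes by the Treg factor Foxp3. Every group was 1 Cy3 array of cells from spleen and lymph nodes of Balb/C mice. The naive group was CD4+CD25-CD62Lhi T cells, and the Treg group was CD4+CD25+ natural regulatory T cells (Treg); neither was transduced. The si-Eos and si-RL groups were CD25+ bead-enriched natural Treg that received a GFP lentivirus. The first carried a hairpin RNA against Eos and the second, the control, one against Renilla luciferase. Both then spent 60 h in medium with human IL-2 and were sorted as GFP+. Transduction, culture and the GFP sort are therefore shared by the hairpin groups and absent from the fresh ones. The labels do not say how many mice gave each sample.

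Engagement of the T cell receptor raises calcium and activates the Ras and MAP kinase pathway, and both routes induce Egr and Nr4a genes within a short time. Egr proteins bind GC-rich DNA through zinc fingers. Nab1 and Nab2 bind Egr1, Egr2 and Egr3 and repress the genes these activate. Egr2 and Egr3 are known for restraining T cell activation and for their part in anergy. Nr4a proteins are orphan nuclear receptors that take part in Treg development and in the response of T cells to chronic stimulation, and Nr4a1 is widely used as a reporter of receptor signal strength.

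The processed spot signal of each array was divided by that array's 75th percentile, which was 303 for naive, 392 for Treg, 320 for si-Eos and 262 for si-RL. Levels below are multiples of that percentile, and differences are on the log2 scale. The ± beside a difference is the scanner software's error of the spots combined, which is technical only. Gaps between a gene's probes are not part of it. Between the hairpin libraries, log2 differences of 8334 other probes lay a median of 0.41 from that of the gene's brightest probe. For 16.0% the gap was over 1. Medians and these shares were 0.17 and 2.71% for Treg against naive, 0.39 and 14.1% for si-RL against Treg, and 0.31 and 13.0% for si-Eos against Treg. A member with 1 probe cannot show such a gap. With 1 array per group there was no replicate spread and no test, so each statement compares those libraries and not the conditions. A gene was counted as apart at 2-fold or more. Between 64.0% and 68.3% of probes were well above background, and all 10 member probes were so on all 4 arrays. The targeted gene went against its label. For Ikzf4, which encodes Eos, the library labelled si-Eos exceeded the one labelled si-RL by 0.93 ± 0.21, 1.19 ± 0.22 and 1.96 ± 0.21 on its 3 probes. Against fresh Treg, these probes gave -1.18, -0.67 and -1.27 in si-RL, and -0.25, 0.52 and 0.69 in si-Eos, in the same order. Directions between the hairpin libraries therefore hold for the libraries as labelled, and would turn if the labels were exchanged. Results of the hairpin libraries against Treg would then change places.

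Cell type markers were examined before the members. All 8 pan-T markers were well above background on every array, and their summed level was 432 in naive, 408.5 in Treg, 438 in si-Eos and 222 in si-RL. The 9 Treg markers summed to 32.0, 189, 375 and 126 in the same order. Tnfrsf18 (GITR) alone made up 237 of the si-Eos sum and 109.0 of the si-RL sum, and without it the other 8 summed to 7.91, 107, 138 and 16.5. Of the 9, 7 were at least 2-fold lower in si-RL than in Treg. The 9 naive T markers summed to 238, 99.7, 87.1 and 173. Of 12 B cell markers, 8, 9, 10 and 8 were well above background, with sums of 18.1, 41.5, 6.49 and 14.97; without Ighm, an immunoglobulin heavy chain, the other 11 summed to 4.30, 7.55, 2.51 and 1.42. Of 10 NK and CD8 T cell markers, 9, 10, 9 and 7 were well above background, and their sum was 57.5 in si-Eos against 8.15, 9.33 and 4.13 in naive, Treg and si-RL. Nkg7, a granule protein gene, made up 50.5 of the si-Eos sum, and the other 9 summed to 7.08 there against 7.38, 4.04 and 3.15. Of 12 myeloid markers, 9, 9, 8 and 6 were well above background, with sums of 2.01, 2.07, 2.47 and 1.85. The 4 erythrocyte and platelet markers on the array summed to 0.376, 0.42, 0.839 and 0.201. Blk, S100a8 and Alas2 were well above background on no array. In bulk RNA, fewer cells of a type and less RNA per cell cannot be told apart.

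The library labelled si-Eos exceeded the one labelled si-RL by 2-fold or more for 5 of the 8 members, and fell below it by that much for none. The 5 were Nr4a2, Egr2, Nab2, Egr3 and Nr4a3. Over all 17085 measured genes, 10.7% lay that far up and 10.1% that far down. The median of the 8 members was 1.42 and that of all genes was 0.04. Nr4a1 and Egr1, the best-known genes of their families, differed by 0.21 ± 0.20 and -0.10 ± 0.20. Of the marker genes measured, 7 of 9 for Treg, 4 of 8 for pan-T and 3 of 7 for NK and CD8 T cells were also past 2-fold upwards, and 6 of 9 for naive T cells downwards; their part in these differences was not tested.

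Between fresh Treg and naive T cells, Nr4a2 and Egr2 were past 2-fold in favour of Treg. That is 2 of 8 members, beside 5.51% of 17595 measured genes, and no member was 2-fold lower, beside 2.04%. Both calls lay close to 2-fold and depended on the processing. With normexp background correction (offset 50) Nr4a2 differed by 0.74 and Egr2 by 0.68, and with scaling to array medians Egr2 differed by 0.92. Of the marker genes measured, 8 of 9 for Treg and 3 of 8 for B cells were also at least 2-fold higher in Treg, and 7 of 9 for naive T cells lower. Of the NK and CD8 T cell markers, 3 of 9 were higher and 2 lower. Their part in the result was not tested.

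Against fresh Treg, the hairpin libraries lay on different sides for Nr4a2 and Egr2. In the si-RL library, Nr4a2, Nab2, Nr4a3 and Egr3, 4 of 8, were at least 2-fold lower (8.21% of 17084 genes were) and none was 2-fold higher (7.89% were). In the si-Eos library, Egr2 and Nr4a2 were past 2-fold upwards, 2 of 8 beside 8.84% of 17899 genes, and none was 2-fold lower, beside 10.0%. The Nr4a2 call lay at the threshold and was lost under quantile normalization (0.98), spike-in scaling (0.65) and normexp (0.96). The medians of the 8 were -1.07 for si-RL and 0.22 for si-Eos. Both comparisons used the same Treg array. In si-RL, 7 of 9 Treg and 4 of 8 pan-T markers were 2-fold lower and 5 of 9 naive T markers higher. In si-Eos, 6 of 9 measured NK and CD8 T markers were 2-fold higher, and 5 of 9 naive T and 4 of 8 measured B cell markers lower. Their part in these differences was not tested.

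**Figure D1:**
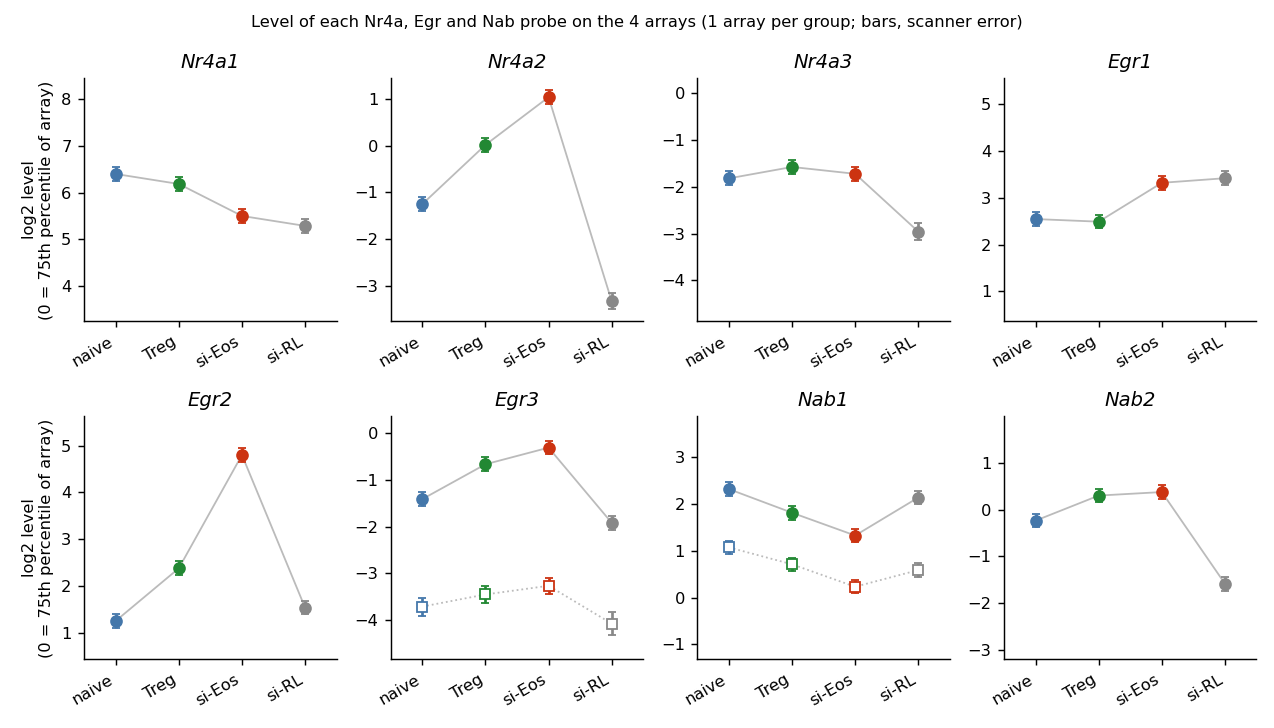
Level of each member probe on the 4 arrays, as log2 relative to the array's 75th percentile, with 1 panel per gene. Filled circles are the brightest probe of the gene, open squares the other probe, bars the scanner error, and lines only join values of a probe. Nr4a2, Egr2, Egr3 and Nab2 have their highest value in si-Eos, while Nr4a1, Egr1 and Nab1 do not.

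Nr4a2 (Nurr1), the receptor that is also needed for dopamine neurons, had the widest range of the 8. Its probe (chromosome 2, 56923674 to 56923733, mm8) read 0.421 in naive, 1.01 in Treg, 2.05 in si-Eos and 0.0998 in si-RL. All 4 arrays were apart from their neighbours in this order by more than 2 scanner errors, with si-RL lowest and si-Eos highest. The library labelled si-Eos exceeded si-RL by 4.36 ± 0.23, or 20.6-fold. Of the 17085 genes well above background on both arrays, 50 differed by more in that direction. This rank leaves out genes not well above background in si-RL, among them Lag3 (at least 181-fold) and Havcr2 (at least 98.9-fold). Treg exceeded naive by 1.27 ± 0.21. Nr4a2 was lower in si-RL than in Treg by a log2 difference of -3.34 ± 0.23 and higher in si-Eos than in Treg by 1.02 ± 0.20. Its signal in si-RL was 26.2 before scaling, and under normexp the difference between the hairpin libraries was 2.88.

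Nr4a1 (Nur77) showed another pattern. It read 84.4 in naive, 72.7 in Treg, 45.3 in si-Eos and 39.1 in si-RL on its probe (chromosome 15, 101102674 to 101102733, mm8), and no spot was saturated. The fresh arrays were the high pair and the hairpin arrays the low pair, with neither pair apart within itself by 2 scanner errors. The hairpin libraries were below Treg by differences of -0.90 ± 0.20 for si-RL and -0.68 ± 0.20 for si-Eos. Under normexp these shrank to -0.29 and -0.02, while Treg against naive became -0.73. The sign of Treg against naive, -0.21 ± 0.20, turned under quantile normalization (0.12) and under spike-in scaling (0.05).

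Nr4a3 (Nor1) was dimmer in 1 library alone. Its probe (chromosome 4, 48088918 to 48092104, mm8), whose listed coordinates span 3187 bases, read 0.283 in naive, 0.335 in Treg, 0.303 in si-Eos and 0.129 in si-RL. The first 3 were not apart by 2 scanner errors from their neighbours, and si-RL lay below them all. The difference was 1.24 ± 0.23 between si-Eos and si-RL and -1.38 ± 0.23 between si-RL and Treg. Under normexp the hairpin difference was 0.52, below 2-fold.

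The 3 Nr4a genes differed in size between the hairpin libraries, from 0.21 for Nr4a1 to 4.36 for Nr4a2. To set sequence beside this, the 250 bases before the start site are shown for the member with the largest difference and for the one with almost none, from RefSeq (GRCm38.p6). Nr4a2 is at chr2:57124004-57124253, minus strand, and Nr4a1 at chr15:101266596-101266845, plus strand; capitals mark matches to the EGR motif, GCGNGGGCG, on either strand.
Nr4a2: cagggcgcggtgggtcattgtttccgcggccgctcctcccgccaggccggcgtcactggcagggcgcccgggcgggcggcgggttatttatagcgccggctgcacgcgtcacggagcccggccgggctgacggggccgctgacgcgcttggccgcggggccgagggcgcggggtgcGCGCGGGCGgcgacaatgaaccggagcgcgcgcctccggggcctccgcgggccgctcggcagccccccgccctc
Nr4a1: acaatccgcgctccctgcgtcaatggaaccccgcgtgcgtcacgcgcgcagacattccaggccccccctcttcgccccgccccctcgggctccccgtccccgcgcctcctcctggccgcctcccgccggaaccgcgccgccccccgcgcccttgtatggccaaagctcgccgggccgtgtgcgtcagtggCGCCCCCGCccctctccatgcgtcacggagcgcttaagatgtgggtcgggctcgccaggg
Each held 1 such match, at positions -74 to -66 in Nr4a2 and -60 to -52 in Nr4a1, counted from the start site. The motif was found in 5.55% of the 32851 promoters of 300 bases in the table, and the Nr4a3 entry held none. That share was not matched for GC, which was 81.7% for Nr4a2, 72.3% for Nr4a1 and 64.7% for Nr4a3. A match is a description of the letters and not evidence of binding.

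Egr2 (Krox20) was the member whose probe (chromosome 10, 66937367 to 66937426, mm8) was printed on 10 spots. It read 2.38 in naive, 5.20 in Treg, 27.9 in si-Eos and 2.90 in si-RL. The SD of log2 signal over the 10 spots was 0.10, 0.06, 0.05 and 0.09 in the same order, which is technical spread on 1 array. The library labelled si-Eos stood far above the other 3, and naive and si-RL were not apart by 2 scanner errors. Egr2 was 9.62-fold higher in si-Eos than in si-RL (3.27 ± 0.20), with 119 of 17085 measured genes further apart in that direction. It was 5.36-fold higher than in Treg (2.42 ± 0.20), and lower in si-RL than in Treg by -0.84 ± 0.20. This si-RL difference was under 2-fold, with 1885 of 17084 genes further down, and ran from -1.22 to -0.37 over the settings. Over 9 processing settings the hairpin difference ran from 3.14 to 3.30, the narrowest range of the 5 members that were apart.

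Egr2 is shown because it had the second largest difference of the 8 between the hairpin libraries, and because its promoter held a CArG box, the element that serum response factor binds. RefSeq gives 5 Egr2 start sites; the sequence is the 250 bases before one of them, chr10:67537619-67537868, plus strand, GRCm38.p6, with the CArG box in capitals at positions -72 to -63.
Egr2: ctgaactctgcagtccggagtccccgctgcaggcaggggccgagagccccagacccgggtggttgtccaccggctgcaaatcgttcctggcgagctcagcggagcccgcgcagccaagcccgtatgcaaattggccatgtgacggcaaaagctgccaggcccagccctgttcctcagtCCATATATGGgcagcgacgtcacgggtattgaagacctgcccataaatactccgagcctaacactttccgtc
This box was in 3 overlapping Egr2 windows, another CArG box was in the window that starts at 67537316, and the window that starts at 67535249 held none. CArG boxes were found in 1.63% of all promoters in the table. No member's window held the full cAMP response element TGACGTCA (1.79% of promoters), the AP-1 site TGANTCA (7.81%), the Nr4a response element AAAGGTCA (1.51%) or a MEF2 site (0.557%). Shorter or variant forms of these elements were not searched for, and the Nr4a3 window held the shorter letters TGACGT. Promoters of Egr1 and Egr3 were not analysed here.

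Egr3, whose product overlaps with that of Egr2 in T cells, had a pair of probes on chromosome 14 (mm8). The brighter (68817252 to 68817311) read 0.376 in naive, 0.631 in Treg, 0.807 in si-Eos and 0.265 in si-RL. Treg and si-Eos were not apart by 2 scanner errors, and naive and si-RL lay below them. The hairpin difference was 1.61 ± 0.21 and that of si-RL against Treg was -1.25 ± 0.21. The dimmer probe (68814100 to 68814159) read 0.0764, 0.0914, 0.104 and 0.0594 and put the arrays in the same order, with no neighbours apart by 2 scanner errors. It gave 0.81 ± 0.30 and -0.62 ± 0.30, below 2-fold both times. With the mean of both probes, Egr3 was no longer 2-fold apart between si-RL and Treg (-0.94).

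Egr1 (Zif268), the family member induced in nearly every cell type, did not follow Egr2 and Egr3. Its probe (chromosome 18, 34990715 to 34990774, mm8) read 5.85 in naive, 5.63 in Treg, 10.01 in si-Eos and 10.7 in si-RL. The hairpin libraries were the high pair and the fresh arrays the low pair, with no gap of 2 scanner errors inside either. Against Treg, Egr1 was higher by 0.93 ± 0.20 in si-RL and by 0.83 ± 0.20 in si-Eos. Both were below 2-fold, and both passed it under normexp (1.30 in each), as did si-RL under median scaling (1.01). The small Egr1 differences changed sign under spike-in scaling for Treg against naive (from -0.06 to 0.21) and under normexp between the hairpin libraries (0.0045). Nr4a1 and Egr1 each separated the fresh pair from the hairpin pair, in opposite directions, but under normexp Nr4a1 did not (-0.02 for si-Eos against Treg).

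Nab2, a corepressor that Egr factors themselves induce, followed Egr2 and Egr3 in direction. It read 0.848 in naive, 1.23 in Treg, 1.30 in si-Eos and 0.333 in si-RL on its probe (chromosome 10, 127063874 to 127063933, mm8). Treg and si-Eos were level within 2 scanner errors, and si-RL was the lowest array by 1.35 ± 0.21 below naive. The hairpin difference was 1.96 ± 0.21, or 3.89-fold, and si-RL was below Treg by -1.88 ± 0.21. It exceeded 2-fold in all 9 settings for both comparisons, though several of these could hardly move a gene with a single bright probe.

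Nab1, its relative, ran the other way. On the brighter of its probes (chromosome 1, 52401875 to 52401934, mm8) it read 4.99 in naive, 3.51 in Treg, 2.51 in si-Eos and 4.41 in si-RL. The library labelled si-Eos was the lowest array, and the difference from si-RL was -0.81 ± 0.20, under 2-fold. The other probe (52402833 to 52402892) read 2.10, 1.64, 1.17 and 1.502, again lowest in si-Eos, with a difference of -0.36 ± 0.20. For si-RL against Treg the probes disagreed in sign, at 0.33 ± 0.20 and -0.12 ± 0.20. Under spike-in scaling the brighter probe also turned sign there (-0.05).

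The Nab1 promoter is shown because it held the most EGR motifs among the 6 members with a promoter entry, although Nab1 did not follow the Egr genes. Its entry was 81.7% GC, and the share of all promoters with this motif was not matched for GC. It lies at chr1:52500449-52500698, minus strand (RefSeq, GRCm38.p6), with the 3 matches in capitals.
Nab1: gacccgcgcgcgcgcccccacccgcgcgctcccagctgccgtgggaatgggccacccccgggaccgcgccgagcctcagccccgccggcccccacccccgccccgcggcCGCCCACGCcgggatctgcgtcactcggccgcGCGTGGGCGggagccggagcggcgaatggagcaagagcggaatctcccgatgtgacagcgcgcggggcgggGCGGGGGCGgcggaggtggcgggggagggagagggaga
They lay at positions -141 to -133, -109 to -101 and -38 to -30. The window of Nab2 held no match to any of the 6 motifs, which says only that these letters are not in this window.

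**Figure D2:**
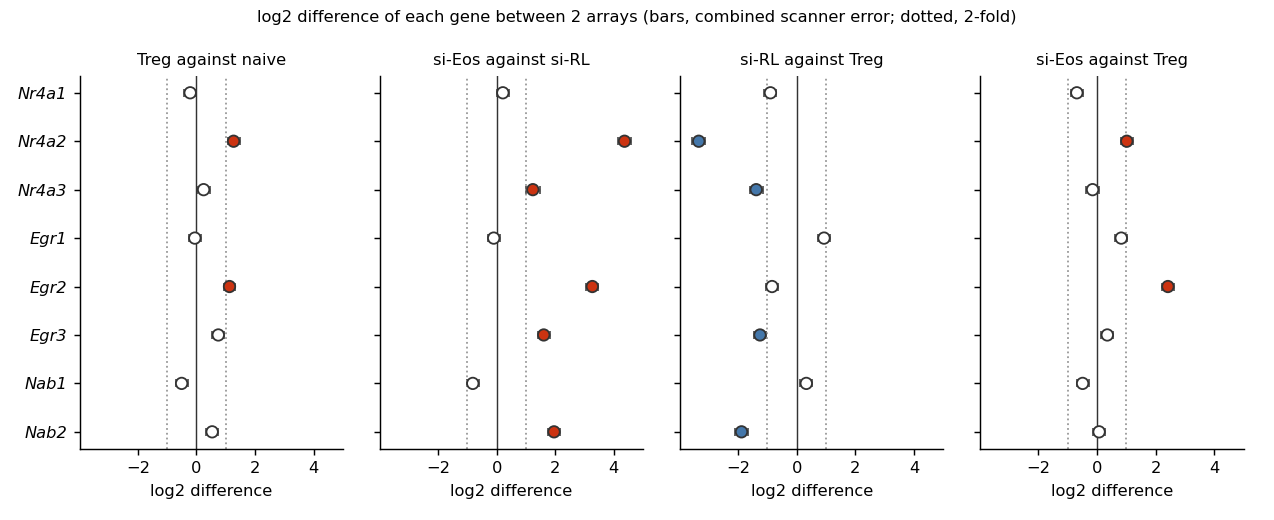
log2 difference of each member between 2 arrays, 1 panel per comparison, by the gene's brightest probe; bars are the combined scanner error and dotted lines mark 2-fold. Red points are at least 2-fold higher and blue points at least 2-fold lower; between si-Eos and si-RL the points run from -0.81 (Nab1) to 4.36 (Nr4a2).

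**Figure D3:**
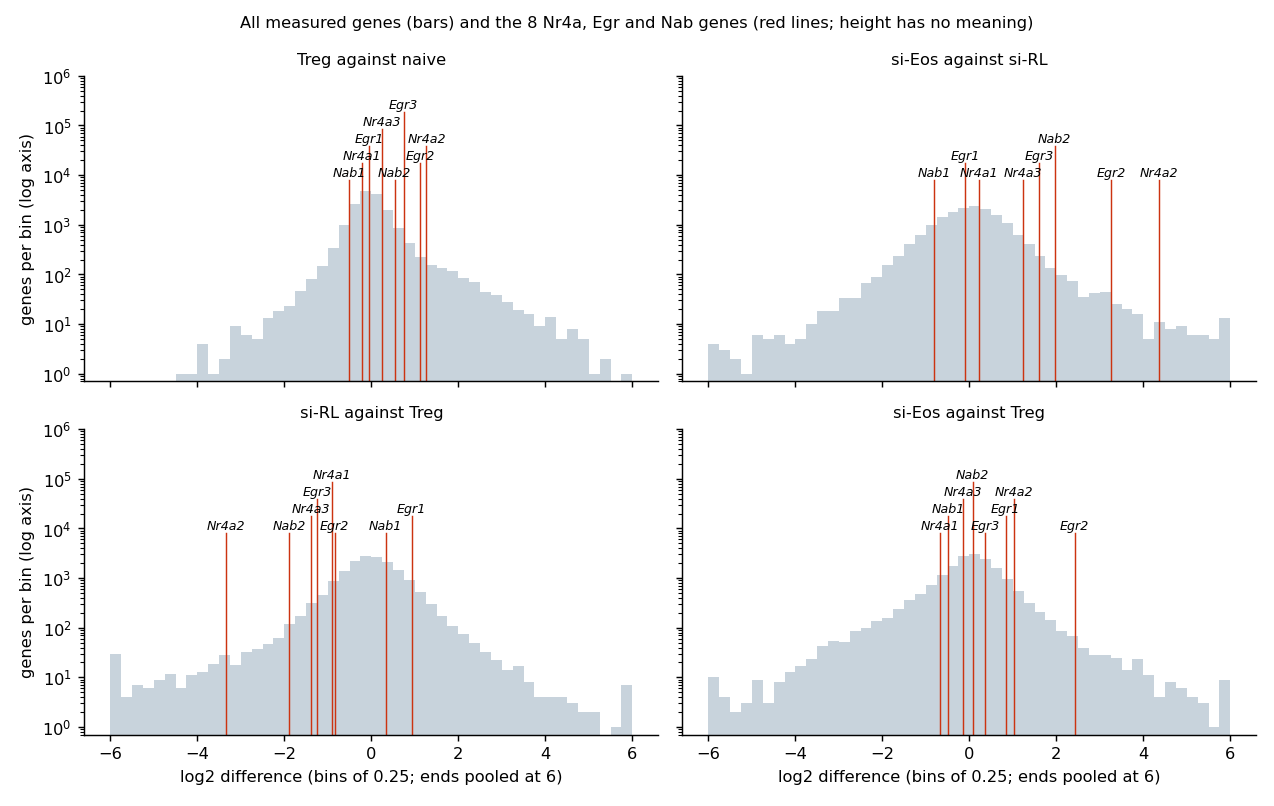
Number of measured genes per 0.25 bin of log2 difference (bars, log axis), with the 8 members as red lines whose height carries no value. Between the hairpin libraries Nr4a2 and Egr2 lie in the right tail, while Nr4a1 and Egr1 lie near the middle of all genes.

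Profiles were then compared by the root mean square distance of log2 levels centred over the 4 arrays. The distance was not scaled to a gene's range, which was 4.36 for Nr4a2 and 1.11 for Nr4a1, and can grow with it. The closest members were Nr4a3 and Nab2 (0.28), Egr3 and Nab2 (0.32) and Nr4a3 and Egr3 (0.36). The most distant were Nr4a2 and Nab1 (1.94). Candidates were 5037 genes with a plain gene symbol, well above background on all 4 arrays and with a range of at least 2-fold. Those nearest to Egr2 were Nek6 (0.09), Kcnk7 (0.10) and Cpe (0.12). Nr4a2 had no neighbour closer than 0.40, which was Ctsw; Iigp1 lay at 0.45. Nearest to Nab2 were Hip1r (0.11), Gmds (0.14) and Usp54 (0.14), and nearest to Egr3 were Klk1b4 (0.05), Fancc (0.06) and Rmdn2 (0.08). For Nr4a1 they were Krt36 (0.02), Slc5a6 (0.03) and U2af1l4 (0.04), and for Nr4a3 they were Fndc3c1 (0.03), Fto (0.05) and Hrob (0.05). Egr1 and Nab1 ranged by less than 2-fold and were not matched. Distances of 0.14 or less were below the median scanner error of an array (0.16 to 0.17), so the order of those neighbours is not resolved.

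The other genes of the pathway were taken from 7 lists, also chosen with earlier results of these data known. Of relatives and partners, Egr4 was well above background in Treg and si-Eos alone. It was at least 9.68-fold higher in si-Eos than in si-RL, at least 3.62-fold higher in Treg than in naive, and higher in si-Eos than in Treg by 1.65 ± 0.22. Bounds of this kind set the bright level over the lowest level that was well above background on the other array, or the dim probe's own level if higher. Rxra, a nuclear receptor partner, was higher in Treg than in naive by 1.46 ± 0.20. The other list members measured (Rxrb, Rxrg, Chd4, Mta1 and Mta2) were under 2-fold in every comparison.

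Signalling genes upstream of the members were examined next. Of 25 receptor-proximal genes, 3 were at least 2-fold higher and 3 lower in si-Eos than in si-RL (median 0.03), shares close to those of all genes (10.7% and 10.1%). The 3 lower were Grap2, an adaptor (-2.66 ± 0.20), Rasgrp1, which activates Ras (-2.49 ± 0.20), and Prkcq, protein kinase C theta (-1.46 ± 0.20). Other probes of these genes gave -1.46, -0.95 and -0.98. The phosphatase gene Ptpn6 differed by 1.30 ± 0.20, but by 0.27 and 0.22 on its other probes. Against Treg, 6 of the 25 were 2-fold lower in si-Eos (10.0% of all genes were) and 1 in si-RL (8.21%). None was higher, beside 8.84% and 7.89%.

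In the calcium, calcineurin and NFAT list, si-Eos exceeded si-RL by 2-fold or more for 2 of 20 genes and was below it for 4 (median -0.38, all genes 0.04). The shares over all genes were 10.7% and 10.1%. Ppp3ca, a gene for a catalytic subunit of calcineurin, differed by -1.85 ± 0.20. The genes of its other catalytic subunits, Ppp3cb and Ppp3cc, differed by -0.24 ± 0.20 and -0.30 ± 0.20. Nfat5 differed by 1.41 ± 0.20. The 5 other Nfat5 probes read 0.99, 1.08, 0.91, 0.11 and 0.74. The receptor gene Itpr2 differed by -1.05 ± 0.20, with its 4 other probes between -1.53 and -0.78. Camk4, a calmodulin kinase, was higher than in Treg in both hairpin libraries, by 1.31 ± 0.20 in si-RL and 1.43 ± 0.20 in si-Eos. Its other probes gave 0.58 and 1.18 for si-RL, and 1.45 and 0.22 for si-Eos. Treg and naive differed by 2-fold for 1 of 21 genes, Orai2 (-1.12 ± 0.20), beside 5.51% of all genes higher and 2.04% lower.

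In the Ras, MAP kinase and SRF list, 5 of 26 were at least 2-fold higher in si-Eos than in si-RL and 3 lower. Over all genes, 10.7% were higher and 10.1% lower. Spry1, an inhibitor of Ras signalling, differed by 2.40 ± 0.21, and in Treg against naive by 2.85 ± 0.21. It read lower in si-RL than in Treg by -2.35 ± 0.21. Elk3, an ETS factor, differed by 2.18 ± 0.20 between the hairpin libraries. Crem, a cAMP-responsive factor, was higher than in Treg in both, by 2.15 ± 0.20 in si-RL and 3.88 ± 0.20 in si-Eos. One of its other probes read -0.46 for si-Eos. Srf itself was under 2-fold in all 4 comparisons, between -0.55 and -0.06.

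Among other immediate early genes, lower values in the hairpin libraries than in Treg were the more frequent. Of 30 measured in si-Eos against Treg, 15 were at least 2-fold lower and 6 higher (median -0.96, all genes 0.06), while no member was 2-fold lower there. The shares over all genes were 10.0% and 8.84%. Fos differed by -4.90 ± 0.20 and Dusp1, a MAP kinase phosphatase, by -4.07 ± 0.20, against 2.42 for Egr2. Fosl2 (4.62 ± 0.23, or 3.06 on its other probe) and Ier3 (4.10 ± 0.32) were higher. Their signals in Treg were low, at 34.4 and 15.9 before scaling. In si-RL against Treg, 12 of 30 were 2-fold lower and 4 higher, beside 8.21% and 7.89% of all genes. The list median was -0.47, beside -1.07 for the 8 members. Rgs1 was at -2.78 ± 0.20, Zfp36 at -2.68 ± 0.20, Ppp1r15a at -2.47 ± 0.20 and Fosl2 at 4.12 ± 0.23 (2.25 on its other probe). Between the hairpin libraries 5 were higher and 8 lower, beside 10.7% and 10.1% of all genes. Atf3 was at 3.45 ± 0.21, Fos at -2.82 ± 0.20, Cd69 at -2.42 ± 0.20 and Nfkbiz at -2.07 ± 0.20. In Treg against naive, 3 of 29 were higher and 2 lower, beside 5.51% and 2.04% of all genes. Rgs1 was at 1.87 ± 0.20, Atf3 at 1.44 ± 0.21, Fosl2 at -1.48 ± 0.24 (-0.58 on its other probe) and Maff at -1.20 ± 0.20.

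Genes tied to Egr2, Egr3 and anergy went both ways. Between the hairpin libraries 4 of 19 were at least 2-fold higher in si-Eos and 5 lower (median 0.07), beside 10.7% and 10.1% of all genes. Tnfrsf9 (4-1BB) differed by 4.56 ± 0.20, Nfil3 by 2.88 ± 0.20 and Crtam by 2.71 ± 0.21. Ndrg1 was lower, by -2.27 ± 0.20. Lag3, an inhibitory receptor, was at least 181-fold higher in si-Eos, and was not well above background in si-RL. The ubiquitin ligase gene Cblb and the kinase gene Dgka, known from anergic T cells, were 2-fold lower in si-Eos (-1.58 and -1.07), and were picked out after their values were seen. Against Treg, Cdkn1a (p21) was higher by 6.95 ± 0.32 in si-RL and 7.56 ± 0.32 in si-Eos. Its signal in Treg was only 13.95 before scaling, so the size of both differences is imprecise.

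Genes tied to Nr4a in Treg and in chronically stimulated T cells were at least 2-fold higher in si-Eos for 10 of 15 (10.7% of all genes were), and none was 2-fold lower than in si-RL (median 2.14). Pdcd1 (PD-1) differed by 5.11 ± 0.21, Cd200 by 4.40 ± 0.21, Foxp3 by 4.30 ± 0.21 and Ikzf2 (Helios) by 3.59 ± 0.20. Havcr2 (TIM-3) was at least 98.9-fold higher. In Treg against naive 14 of 15 were 2-fold higher (median 2.46), beside 5.51% of all genes. Against Treg, si-RL had 8 of 15 lower and 1 higher, beside 8.21% and 7.89% of all genes. The si-Eos library had 5 of 16 higher and none lower, beside 8.84% and 10.0%, with Irf4 at 2.19 ± 0.20. Of the 18 genes in this list, 6 are also among the Treg markers given above.

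**Figure D4:**
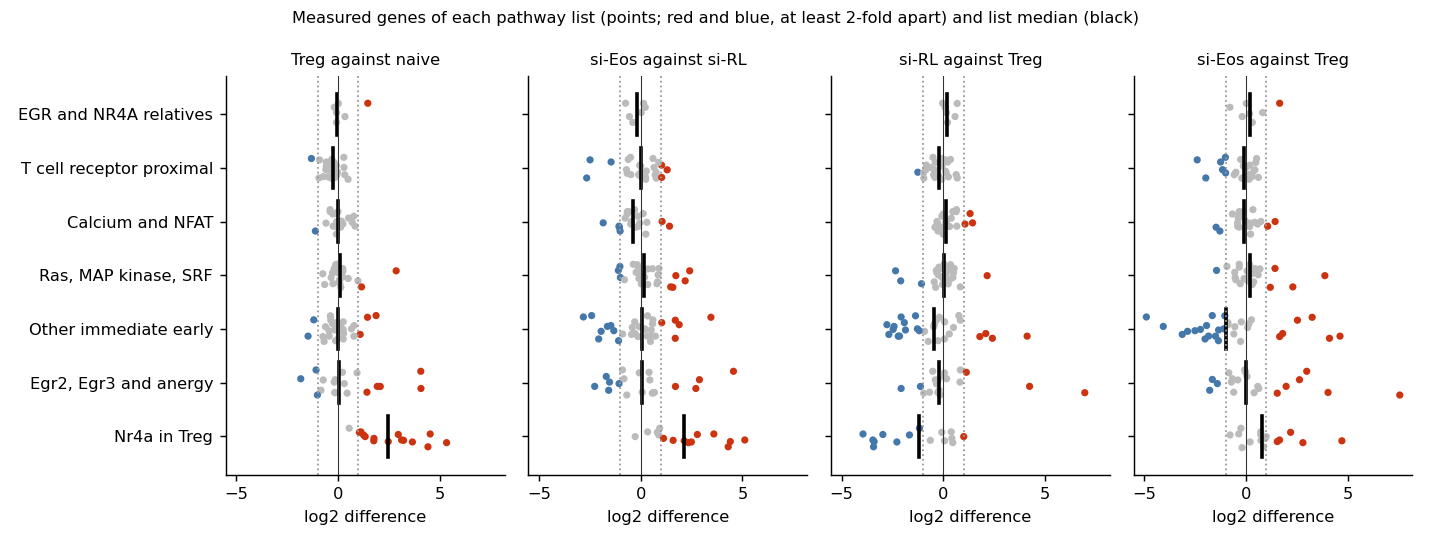
log2 difference of every measured gene of the 7 lists, 1 panel per comparison; red and blue points are at least 2-fold higher and lower, and black bars are list medians. The Nr4a in Treg list sits to the right in Treg against naive (2.46) and in si-Eos against si-RL (2.14), and the other immediate early list sits to the left in si-Eos against Treg (-0.96).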

How the data were processed

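Spot intensity on a linear scale was deposited for each array, read by Feature Extraction version 9.5.3.1 according to the headers. Per the file headers, its processed form was background-subtracted and detrended, and was not normalized between arrays. All 4 arrays were on 1 slide. The deposited value table matched the processed intensity (median ratio 1.00).

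The log2 of this signal, less that of the array's 75th percentile over non-control probes, was computed in Python 3.11.15. Outlier spots were left out and spots of a probe averaged. Probe names came from a RefSeq table (GRCm38.p6): 24375 by accession, 6301 by symbol, 2426 by synonym, and 8072 kept the file's name. A gene was represented by its brightest probe and counted where well above background on both arrays. Normexp used limma 3.58.1 on the mean spot signal and local background, with an added offset of 50. An offset of that size by itself narrows differences of dim probes, and its share in the normexp changes was not tested. The members and lists were chosen with earlier results of these data known. Named genes were the members and, per list and comparison, up to 4 genes at least 2-fold apart. The counting step was tested on simulated data with scanner error only: of 100 planted 3-fold differences, 98 were counted between the hairpin libraries (17085 genes). In all, 8 alternatives were run. The number of arrays limits the precision. Some items chosen by these rules are not reported here.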

Additional observations from a re-analysis of the deposited data

Results flagged for a closer look

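Nr4a2 and Egr2 differed from fresh Treg in opposite directions in the hairpin libraries as labelled. Each difference was more than 2 scanner errors, which are technical only and do not count gaps between probes. For Nr4a2 the difference from Treg was 1.02 in si-Eos and -3.34 in si-RL. For Egr2 it was 2.42 in si-Eos and -0.84 in si-RL. The si-RL value for Egr2 was under 2-fold and ran from -1.22 to -0.37 over the 9 processing settings. Whether the libraries differ was not tested, since each was 1 array, and both values share the Treg array.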

How the results depend on the processing

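With 1 array per group no replicate could be left out. No paired analysis was possible because each group held 1 array. No member at least 2-fold apart changed direction under the 8 alternatives, and sign changes were limited to values under 2-fold. Between the hairpin libraries 5 members stayed at least 2-fold higher under 7 alternatives and 4 under normexp. Some of the 7 had little scope to change this. All member probes were well above background and none was flagged, so the filter and flag settings could hardly move them. The deposited value table matched the processed intensity. Averaging probes could move only Egr3 and Nab1, and median or spike-in scaling shifts every gene of a comparison by the same amount. Members 2-fold higher in Treg than in naive went from 2 to 1 under median scaling and 0 under normexp. In si-RL against Treg 1 member, Egr1, became 2-fold higher under median scaling and 1, again Egr1, under normexp. In si-Eos against Treg 1 member stayed 2-fold higher under quantile normalization and 1 under spike-in scaling, where 1, Nr4a1 (-1.05), was lower. Spike-in scaling also put Nr4a1 (-1.28) and Egr2 (-1.22) 2-fold below Treg in si-RL, and Egr3 (1.01) 2-fold above naive in Treg.

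Counts over all genes moved more. Treg against naive had 970 higher and 359 lower (73.0% higher). This became 771 and 627 (55.2%) under median scaling, 1434 and 206 (87.4%) under spike-in scaling, 1894 and 369 (83.7%) under normexp, and 2140 and 982 with no filter on dim probes. Between the hairpin libraries 1829 and 1725 became 1136 and 827 under normexp and 3570 and 2862 with no filter. In si-RL against Treg 1348 and 1402 (49.0%) became 654 and 2967 (18.1%) under spike-in scaling, 960 and 4474 (17.7%) under normexp, and 2581 and 2805 with no filter. In si-Eos against Treg 1583 and 1797 (46.8%) became 857 and 3017 (22.1%) under spike-in scaling, 1449 and 5889 (19.7%) under normexp, and 3021 and 2789 with no filter. The median of all genes moved to 0.25, -0.39 and -0.31 under spike-in scaling in Treg against naive, si-RL against Treg and si-Eos against Treg, and to 0.21, -0.31 and -0.36 under normexp. Median scaling moved these to -0.23, 0.07 and 0.17. The cause was not tested.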
